A study of Drosophila melanogaster with 3 samples.

Results

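The regions described here are places where the female isoform of Doublesex was mapped beside, but not on, a region occupied by the male isoform. The somatic sex determination pathway of Drosophila ends in this transcription factor, abbreviated DSX. Its transcript is spliced differently in the sexes, and the resulting proteins, DSXF in females and DSXM in males, bind DNA through the same DM domain and carry different C-terminal ends. In the fat body the yolk protein genes are the textbook case, activated by DSXF and repressed by DSXM through the same enhancer sites. A region listed for a single isoform is therefore a region to compare closely with its surroundings.

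S2 cells, a cultured line with macrophage-like properties derived from embryos, were transfected with a plasmid for V5-tagged DSXF or V5-tagged DSXM together with the selection plasmid pCoBlast, and anti-V5 antibody was used to precipitate their chromatin. The DSXF sample pooled 3 biological replicates and 4 sequence runs, the DSXM sample 3 replicates and 3 runs, and the input sample, from untransfected cells, 2 replicates and 2 runs. The isoforms were supplied from plasmids in cells of 1 line, so the groups model an expressed, tagged isoform and not a sex. Peak lists hold no expression values, and the label of the cells could not be set against marker genes. Each isoform was represented by 1 list of start and end positions on the dm3 build, with no peak height, p-value, read depth or replicate error. All values below describe these lists. Intervals are 95% intervals over peaks and cover counting error only.

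The peaks were chosen by their overlap with, and distance to, the DSXM list. A DSXF peak was taken when no DSXM peak overlapped it by 1 bp or more and the gap, meaning the bases between the edges, to the nearest DSXM peak on the same chromosome was at most 10 kb. Peaks on 2L, 2R, 3L, 3R, X and 4 were kept. There were 1365 such peaks among the 6494 DSXF peaks of these sequences (21.0%), and among 6520 on all sequences. They covered 1.775 Mb, which was 13.8% of the 12.91 Mb under DSXF peaks. The remaining DSXF peaks were 4466 that overlapped a DSXM peak, called shared below, and 663 DSXF-only peaks with a gap over 10 kb. The 1365 peaks thus made up 67.3% (65.2 to 69.3%) of the 2028 DSXF-only peaks. Those measures, and widths, which bear on overlap, are therefore given as descriptions without a test.

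That share can be set beside the same count for other classes of peaks. Of the 4466 shared peaks, 3559 (79.7%, 78.5 to 80.9%) had a further, non-overlapping DSXM peak within 10 kb. The same rule read in the other direction gave 587 DSXM-only peaks within 10 kb of a DSXF peak, which was 74.7% (71.5 to 77.6%) of 786 DSXM-only peaks. The DSXF list is the longer of the lists, and its part in this difference was not tested.

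Most of these DSXF-only peaks lay more than 1000 bp from the DSXM peak. The gap had a median of 2795 bp (2596 to 2967 bp), quartiles of 1154 and 5052 bp, and a range from 10 to 9995 bp. A gap of at most 500 bp was seen for 150 peaks (11.0%, 9.44 to 12.8%) and one above 500 and up to 1000 bp for 148 (10.8%). Another 234 (17.1%) had gaps above 1000 and up to 2000 bp, 487 (35.7%) had gaps above 2000 and up to 5000 bp and 346 (25.3%) had longer ones. Per kilobase of gap, this was 300 peaks in the closest class and 69.2 in the farthest. For the 587 DSXM-only peaks beside DSXF these counts were 158 and 23.8, so a fall with distance is not particular to the DSXF-only peaks. Centres of the DSXF-only peaks and of their nearest DSXM peaks were a median of 4405 bp apart and never closer than 1003.5 bp. Since the rule forbids overlap, this distance cannot be less than the mean width of the DSXF and DSXM peak. The mirror set of 587 DSXM-only peaks had a shorter median gap, 2194 bp (1948 to 2446 bp), and shared DSXF peaks lay a median of 2126 bp (2005 to 2250 bp) from their further DSXM peak when it was within 10 kb. Mirror gaps were measured to the longer DSXF list, and the part of list length in this difference was not tested.

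**Figure D1:**
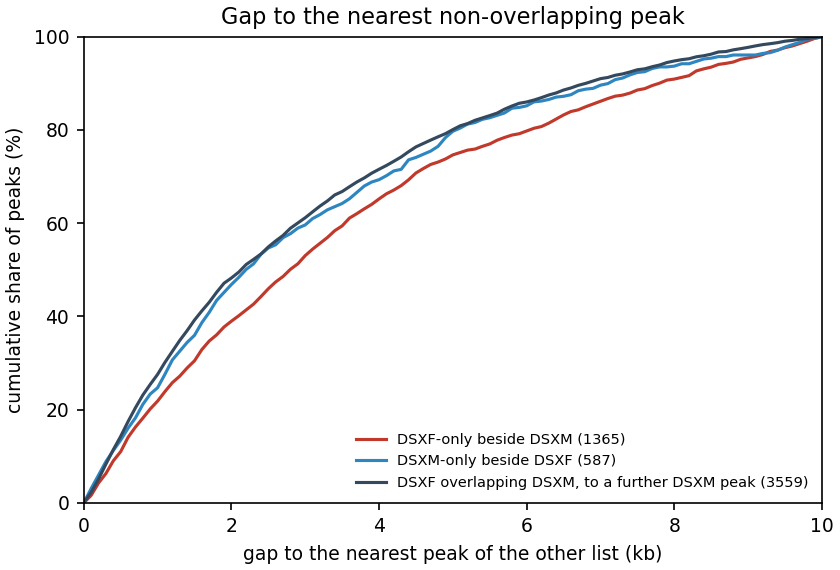
Cumulative share of peaks (vertical axis, %) by gap to the nearest non-overlapping peak of the other list (horizontal axis, kb) for 1365 DSXF-only peaks beside DSXM, 587 DSXM-only peaks beside DSXF and 3559 shared DSXF peaks with a further DSXM peak within 10 kb. The DSXF-only curve lies to the right of the other curves over most of the range, with medians of 2795, 2194 and 2126 bp in that order. Gaps of the DSXM-only peaks are to the longer DSXF list, those of the other classes to the DSXM list.

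The limit of 10 kb cut through a continuous range. The 5 peaks with the longest gaps were at 9923, 9953, 9970, 9984 and 9995 bp from DSXM, and the 5 DSXF-only peaks just beyond the limit were at 10054, 10071, 10077, 10079 and 10084 bp. No break in spacing was seen there. Beyond the limit the median gap was 21522 bp and the longest 388065 bp.

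The closest peaks nearly touched a DSXM peak. The smallest gap was on X, where the DSXF-only peak from 13854123 to 13855625 (1503 bp) began 10 bp after a DSXM peak that ended at 13854112. A shared DSXF peak from 13852003 to 13854109 lay over that DSXM peak, so DSXF had a pair of peaks 13 bp apart where DSXM had 1. A like arrangement was seen elsewhere on X, with a gap of 15 bp to DSXM for the peak from 16733617 to 16734706 and 42 bp to the next DSXF peak. In other places the DSXM neighbour had no DSXF peak of its own. On 3R the DSXF-only peak from 27563375 to 27564688 began 15 bp after a DSXM-only peak that ran from 27562341 to 27563359, and on 2L the DSXF-only peak from 7145130 to 7146343 was 22 bp from a DSXM-only peak from 7146366 to 7147462. Positions are those of dm3 counted from 1, and the genes at them were not assigned here, since the gene table used here belongs to another build.

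The DSXM peak next door was usually one that DSXF occupied as well. For 1173 of the 1365 peaks (85.9%, 84.0 to 87.7%) the nearest DSXM peak overlapped a DSXF peak. Over all DSXM peaks the share was 4561 of 5347 (85.3%, 84.3 to 86.2%), a difference smaller than the counting interval. The share was between 82.9 and 86.9% in every gap class, and it was 86.0% for gaps of at most 500 bp and 86.4% for gaps above 5000 bp. For DSXM-only peaks in the mirror set, 427 of 587 (72.7%, 69.0 to 76.2%) had a shared DSXF peak as nearest, against 68.8% of all DSXF peaks.

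Pairs in which each isoform had a peak of its own next to the other were a small part. In 192 cases (14.1%, 12.3 to 16.0%) the nearest DSXM peak was DSXM-only. Over all DSXM peaks 786 of 5347 were DSXM-only, since 85.3% overlapped a DSXF peak. The share among these neighbours was thus near that of the whole list. In 123 of the 192 cases (9.01% of the 1365, 7.60 to 10.7%) each peak was also the nearest peak of the other list to its counterpart. In such pairs the isoforms had separate peaks side by side. Their median gap was 1782 bp (1408 to 2193 bp), and 20 of the 123 (16.3%) were at most 500 bp apart. The DSXF peaks of these pairs had a median width of 1123 bp and the DSXM peaks one of 1190 bp.

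The 1365 peaks drew on 1144 different DSXM peaks, or 21.4% of the DSXM list. Of these DSXM peaks, 953 were nearest to 1 DSXF-only peak, 166 to 2, 20 to 3 and 5 to 4. The DSXM neighbour lay at lower coordinates for 690 peaks (50.5%, 47.9 to 53.2%) and so on either side about as often. Its median width was 1552 bp (1503 to 1602 bp), beside 1580 bp (1556 to 1604 bp) for all DSXM peaks. From the shortest to the longest gap class its median width was 1826, 1671, 1439.5, 1510 and 1588 bp, without a steady order.

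In the shared pair beside a DSXF-only peak, DSXF reached past DSXM by about as much on the side facing that peak as on the other side. In 1118 cases (81.9%) the nearest DSXM peak met 1 DSXF peak and that DSXF peak met no other DSXM peak, so that the edges could be compared. These cases rested on 935 different pairs, since several DSXF-only peaks can share a neighbour. The 66 pairs with such peaks on both sides have no opposite side and were left out, and each of the remaining 869 was counted once. At the edge facing the DSXF-only peak, DSXF reached farther than DSXM in 565 of 862 pairs of unequal edges (65.5%, 62.3 to 68.6%), by a median of 25 bp (19 to 33 bp) over all 869. At the opposite edge DSXF reached farther in 565 of 860 (65.7%, 62.5 to 68.8%), by a median of 27 bp (21 to 36 bp). The excess was larger on the facing side in 422 of 868 pairs where the sides differed (48.6%, 45.3 to 51.9%). Pairs that were no such peak's neighbour had DSXF reaching farther at 4049 of 6395 edges (63.3%, 62.1 to 64.5%), by a median of 23 bp. Across the gap classes the median excess ran from 20 to 37 bp at facing edges and from 7 to 45 bp at opposite edges, with no steady order by gap. Peaks of 1 list do not overlap, so the facing excess cannot be larger than the gap, which does not limit the opposite edge. A shared DSXF peak that ran into its neighbour would be a single peak and is not counted here. The likeness of the sides is therefore a description and was not tested.

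**Figure D2:**
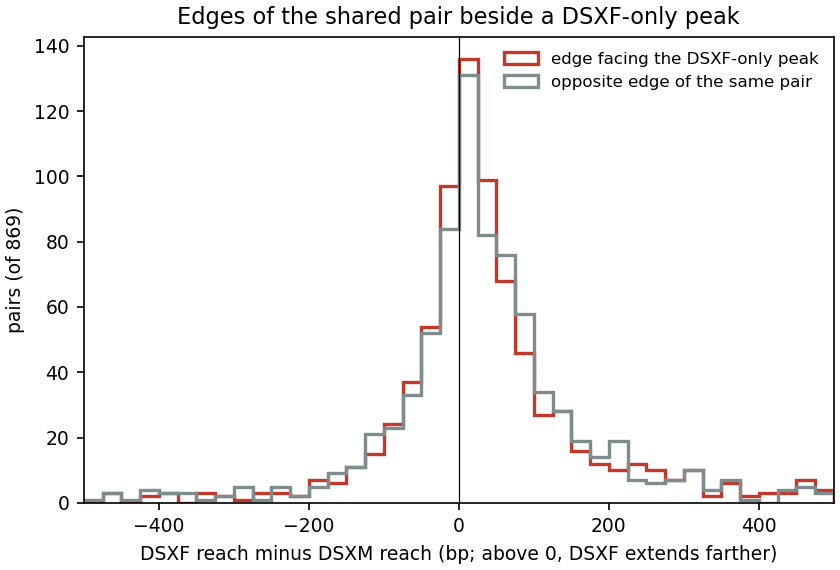
Number of pairs (vertical axis) by DSXF reach minus DSXM reach in bp (horizontal axis; above 0, DSXF extends farther) at the edge facing the DSXF-only peak and at the opposite edge, for 869 pairs with such a peak on 1 side. The outlines lie close together, with medians of 25 and 27 bp; 88 facing and 85 opposite edges fall outside the 500 bp shown on either side.

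Another DSXF peak was usually nearer than any DSXM peak. The nearest other DSXF peak was a median of 2271 bp away (2151 to 2422 bp), and for 897 of the 1365 (65.7%, 63.2 to 68.2%) it came before any DSXM peak. It was a shared peak for 1039 (76.1%), another of the 1365 for 286 (21.0%) and a DSXF-only peak beyond 10 kb of DSXM for 40 (2.93%). In 922 cases (67.5%) it was the very DSXF peak that overlapped the nearest DSXM peak. There the order rests only on which of the overlapping peaks reaches farther towards the DSXF-only peak. It does not show a separate, nearer DSXF site, and no such share was counted for other classes. A shared DSXF peak lay within 500 bp of 160 peaks (11.7%, 10.1 to 13.5%), and 187 (13.7%, 12.0 to 15.6%) were that close to a shared DSXF or to a DSXM peak. Whether the peak caller divided single regions there was not tested. In 20 places a pair of these DSXF-only peaks lay within 500 bp of each other.

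The peaks were narrow, and their width did not follow the distance from DSXM. The median was 1145 bp (1130 to 1170 bp), with quartiles of 1024 and 1466 bp and a range from 310 to 4225 bp. DSXF-only peaks beyond 10 kb had a median of 1130 bp (1107 to 1158 bp), so that the medians of these classes differed by less than their intervals. The distant peaks had a lower upper quartile, 1389 bp, and on X the medians were farther apart, 1364.5 bp beside DSXM and 1173.5 bp beyond 10 kb. Shared DSXF peaks had a median of 1859 bp (1817 to 1900 bp). The mirror DSXM-only peaks had a median of 1230 bp (1202 to 1261 bp). By gap class the median width lay between 1130 and 1192 bp. Across the 1365 peaks, Spearman's rho was -0.04 between gap and width and 0.06 between their width and that of the nearest DSXM peak; these values are descriptions, since all points come from the same pair of lists. Only 105 peaks were 2000 bp or wider and 14 were 3000 bp or wider.

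**Figure D3:**
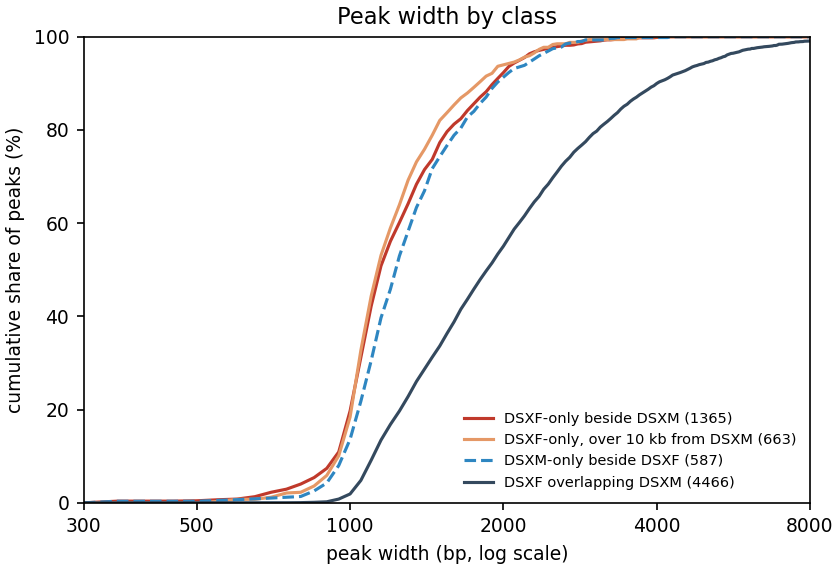
Cumulative share of peaks (vertical axis, %) by peak width (horizontal axis, bp, log scale) for DSXF-only peaks beside DSXM (1365), DSXF-only peaks over 10 kb away (663), DSXM-only peaks beside DSXF (587) and shared DSXF peaks (4466). The curves of both DSXF-only classes have medians of 1145 and 1130 bp and upper quartiles of 1466 and 1389 bp, and the shared peaks lie to the right at 1859 bp.

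When all DSXF peaks were ranked by width and cut into 5 classes of nearly equal number, the DSXF-only peaks beside DSXM made up 583 of 1299 (44.9%, 42.2 to 47.6%) in the narrowest class. They made up 354 (27.3%) in the next, 245 (18.9%) in the middle one, 155 (11.9%) in the one above and 28 of 1298 (2.16%) in the widest. The share of DSXF-only peaks that had a DSXM peak within 10 kb varied less, being 66.2% (63.0 to 69.2%) in the narrowest class and 73.7% (58.0 to 85.0%) in the widest, where 28 DSXF-only peaks lay beside DSXM and 10 farther away. These intervals overlap.

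The 10 widest of these regions spanned 3169 to 4225 bp. The first of them, on 3R from 14121338 to 14125562 (4225 bp), began 1620 bp beyond a DSXM peak of 2840 bp (14116878 to 14119717) that a DSXF peak of 2822 bp (14116845 to 14119666) nearly matched, and no DSXM peak followed for 30426 bp. The next, on X from 5570474 to 5574596 (4123 bp), was 8810 bp from a DSXM peak on one side and 49318 bp on the other. On X from 13888449 to 13891752 (3304 bp) the nearer DSXM peak was 2685 bp away and the other 213249 bp. Of the 10 widest, 9 had a shared DSXM peak as nearest neighbour.

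The exception was the third widest, on 3R from 12887986 to 12891973 (3988 bp), which lay inside a crowded region. Its nearest DSXM peak was DSXM-only, 986 bp wide (12886501 to 12887486) and 499 bp away. That peak in turn lay between this region and another DSXF-only peak of 1171 bp from 12884395 to 12885565. On the other side a shared site followed after 1141 bp, at 12893115 to 12894274 in the DSXM list and 12893086 to 12894248 in the DSXF list. Still farther out, a DSXF peak of 4695 bp and a DSXM peak of 4300 bp coincided from 12878950 to 12883249. In this region the isoforms shared the outer sites and differed at 3 neighbouring ones, of which DSXF had 2 and DSXM 1.

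**Figure D4:**
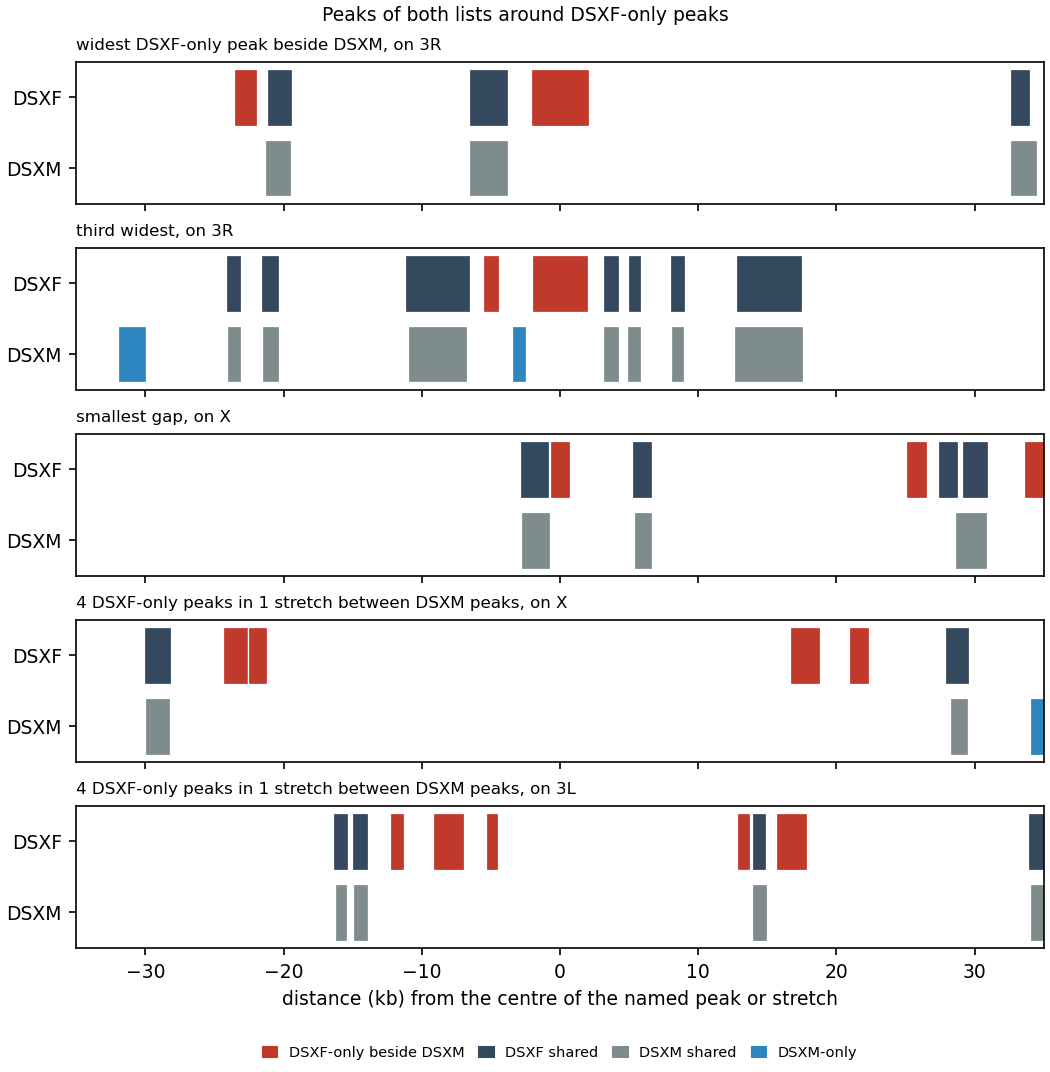
Peaks of the DSXF list (upper row of each panel) and the DSXM list (lower row) by distance in kb from the centre of the named peak or stretch, for the DSXF-only peaks beside DSXM that are the widest and the third widest, the one with the smallest gap, and stretches on X and 3L with 4 of them. DSXF-only peaks have no bar beneath them, while shared peaks lie over a DSXM bar.

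Stretches between one DSXM peak and the next showed how the regions were arranged. Of 5341 such stretches, 1093 (20.5%, 19.4 to 21.6%) held at least 1 of the 1365 peaks. Of these, 870 (79.6%) held 1, 181 held 2, 35 held 3 and 7 held 4, so 495 peaks (36.3%) had company in their stretch. Stretches with such a peak had a median length of 19018 bp (17151 to 20756 bp), and stretches without any DSXF-only peak one of 4321.5 bp (4058 to 4511 bp). A stretch must be long enough to hold a peak, and the share with one was 8.71% for lengths above 2000 and up to 5000 bp, 23.5% up to 10000 bp, 34.2% up to 20000 bp and 37.1% (34.6 to 39.7%) above that. In stretches above 20000 bp part of the middle can lie beyond 10 kb of DSXM, where the rule admits no peak. Both flanking DSXM peaks were shared with DSXF in 778 of the 1093 stretches (71.2%, 68.4 to 73.8%), and in 3134 of the 4248 others (73.8%, 72.4 to 75.1%).

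A DSXM peak lay within 10 kb on both sides of 503 peaks (36.9%, 34.3 to 39.4%). All of these peaks have DSXM within 10 kb on at least 1 side by the rule. Among the 3559 shared DSXF peaks for which a further DSXM peak lay that near, 1651 (46.4%, 44.8 to 48.0%) had one on both sides, and in the mirror set 272 of 587 DSXM-only peaks (46.3%, 42.3 to 50.4%) had DSXF on both sides. The mirror share refers to the longer DSXF list, and these shares were not tested against each other. Tightly enclosed peaks, with DSXM within 2000 bp on both sides, numbered 60 (4.40%, 3.43 to 5.62%), beside 255 of all 4466 shared DSXF peaks (5.71%, 5.07 to 6.43%). The bases are unlike, since the 255 all belong to the 3559 with DSXM within 10 kb, of which they are a larger share. Both flanking DSXM peaks were shared with DSXF for 48 of the 60 enclosed DSXF-only peaks and 1 of them for 12.

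The stretches with 4 peaks showed differing arrangements. The rule keeps each peak within 10 kb of a DSXM peak, so in long stretches it can lie only towards an end. On X from 17547006 to 17603427 (56.42 kb without DSXM), a pair lay near one end (17550825 to 17552640 and 17552667 to 17554017) and another pair near the other (17591847 to 17593999 and 17596160 to 17597598). On 3R from 3854552 to 3926654 (72.10 kb) there was likewise a pair near either end. On 2L from 22053351 to 22130830 (77.48 kb) all 4 lay within the last part, from 22120596 to 22130801, with the last ending just before the next DSXM peak. On 3L from 16575211 to 16603049 (27.84 kb), 3 followed each other from 16576833 to 16584667 and the fourth lay at the far end, from 16601917 to 16602901. In bins of 50 kb the highest number was 5, reached on 2L from 10400001 to 10450000 and from 22100001 to 22150000 and on 3L from 13900001 to 13950000. These bins held 10, 9 and 9 DSXF peaks and 5, 3 and 3 DSXM peaks in that order. Bins with 4 numbered 24, and 1087 bins that held a peak of either isoform held none of the 1365.

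The wider surroundings were also counted. Within 50 kb on either side of the centre there was a median of 6 DSXM peaks (quartiles 4 and 9) and 7 other DSXF peaks (5 and 10). Shared DSXF peaks had medians of 7 DSXM peaks, their own partner included, and 7 other DSXF peaks. DSXF-only peaks beyond 10 kb had medians of 3 and 4. The rule asks for a DSXM peak nearby, most DSXM peaks carry a DSXF peak, and both counts are therefore partly fixed by it.

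Across the chromosomes the share was even on the autosome arms. Of the DSXF peaks, 283 of 1307 on 2L (21.7%), 276 of 1238 on 2R (22.3%), 281 of 1416 on 3L (19.8%) and 352 of 1647 on 3R (21.4%) were DSXF-only peaks beside DSXM, and the intervals of the 4 arms overlapped. On X they were 168 of 835 (20.1%, 17.5 to 23.0%), against 21.3% (20.2 to 22.4%) for the 4 arms together. DSXF-only peaks beyond 10 kb made up 16.3% of the DSXF peaks on X and between 8.47 and 10.3% on the autosome arms. Of DSXF-only peaks on X, 55.3% (49.6 to 60.8%) had a DSXM peak within 10 kb, compared with 69.7% (67.5 to 71.8%) on the autosome arms. DSXM peaks were also sparser on X, with 30.3 per Mb against 45.4 to 49.5 on the arms, over the span that the peaks of either list take up. How far that density accounts for the lower share was not tested. The mirror DSXM-only peaks showed the same order, 60.9% beside DSXF on X and between 73.9 and 83.3% on the arms. The small chromosome 4 had 5 of the peaks, or 9.80% of 51 DSXF peaks (4.26 to 21.0%), too few to place it against the others.

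**Figure D5:**
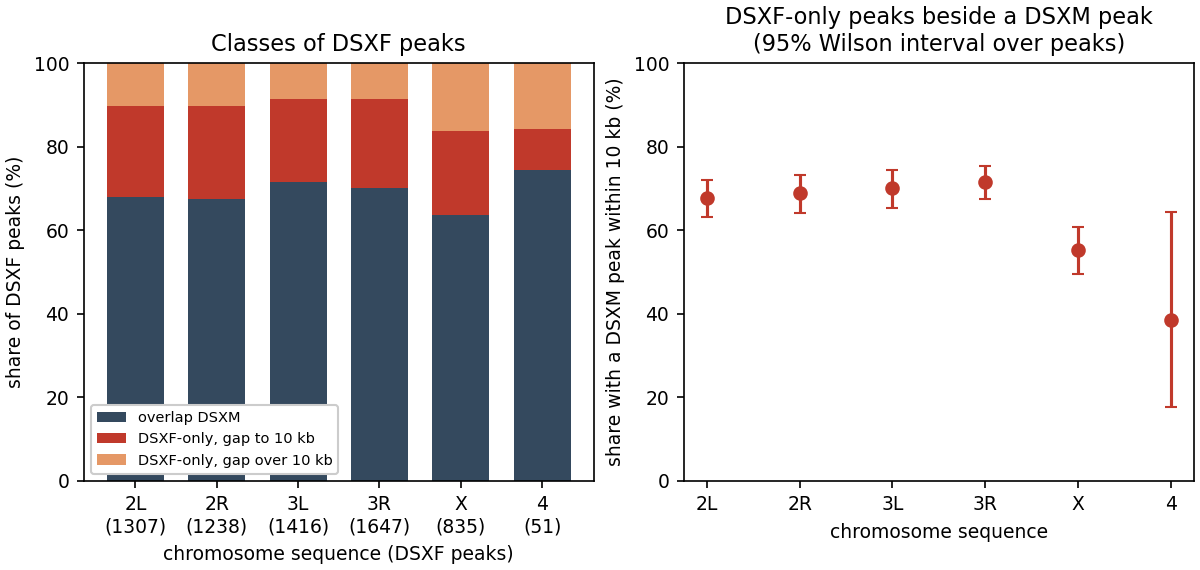
Left, share of DSXF peaks (vertical axis, %) that overlap DSXM, are DSXF-only with a gap up to 10 kb, or DSXF-only with a longer gap, by chromosome sequence (number of DSXF peaks in brackets). Right, share of DSXF-only peaks with a DSXM peak within 10 kb, with 95% Wilson intervals over peaks: X is at 55.3%, below 2L, 2R, 3L and 3R at 67.9 to 71.5%, and chromosome 4 has a wide interval.

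On X the peaks were wider. Their median width was 1364.5 bp (1228 to 1464 bp) on X and 1132.5 bp (1115 to 1151 bp) on the autosome arms, where the 4 medians ran from 1124 bp on 3L to 1164 bp on 2L. Other classes were also wider on X. Shared DSXF peaks had medians of 2040 bp (1951 to 2168 bp) on X and 1821 bp (1784 to 1872 bp) on the arms, the mirror DSXM-only peaks 1321.5 bp (1233 to 1496 bp) and 1219 bp (1187 to 1243 bp), and the distant DSXF-only peaks 1173.5 bp (1145 to 1243 bp) and 1113 bp (1093 to 1138 bp). Medians were thus higher on X in each of these classes, by unequal amounts, and the intervals of the mirror peaks overlapped. On X the DSXF-only peaks beside DSXM were also wider than the distant ones (medians of 1364.5 and 1173.5 bp). On the arms the intervals of these classes overlapped. Whether the difference on X is particular to the DSXF-only peaks beside DSXM was not tested. Their gaps had a median of 2956 bp (2408 to 3554 bp) on X and 2789.5 bp (2588 to 2959 bp) on the arms, a difference within these intervals.

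Along the arms the number of these peaks varied from place to place. Bins of 1 Mb on the 5 long sequences held a median of 11 (quartiles 8 and 15, range 0 to 24). The highest number, 24 of 106 DSXF peaks (22.6%), was on 2L between 8 and 9 Mb. That share was near the 21.0% over all DSXF peaks, and no other bin held as many DSXF peaks. The bin with the next highest number, on 2L between 10 and 11 Mb, had 23 of 72 (31.9%), and 3 bins had 22: 2L between 7 and 8 Mb (22 of 82, 26.8%), 2R between 5 and 6 Mb (22 of 85, 25.9%) and 3L between 9 and 10 Mb (22 of 70, 31.4%). On X between 4 and 5 Mb there was 1 among 23 DSXF peaks, in a bin with 15 DSXM peaks. The other way, X between 1 and 2 Mb had 14 among 35 (40%), in a bin with 22 DSXM peaks. These bins on X were picked for their low and high shares, and the spread among bins was not tested.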

How the data were processed

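Replicates were merged at the level of reads, before alignment and peak calling, per the series' design text. Bowtie 0.12.7, Picard and dm3 appear in the submitters' processing notes. The caller of the peaks, its threshold and its control are not stated in what was used here. The authors deposited 1 list per isoform with 3 columns (chromosome, start, end); starts were read as counted from 0 and are printed counted from 1. Depth is unknown; more reads can give more peaks. Lists were compared with SciPy 1.17.1 and NumPy 2.4.6 under Python 3.11.15, figures were drawn with matplotlib 3.10.9, and bedtools 2.31.1 gave the same 1365 peaks. On 1521 simulated peaks, class and gap were right for 100%. The simulated DSXM peaks stood far apart, with DSXF peaks on or beyond 1 side only. The choice between close DSXM neighbours was therefore not checked there. Shares have Wilson intervals and medians order-statistic intervals. No test was run, because overlap and gap chose the peaks and each isoform is 1 pooled list. Regions named by position were the 10 widest, the 5 with the smallest gap and the 5 with the largest, the 5 just beyond the limit, and the 5 stretches and 5 bins with most peaks, of which those that matter are given with their neighbours. The peaks and lists were chosen with earlier results of these data known. The planned look at genes and at the DSX motif needs dm3 annotation and sequence and was not run. Other sequences, with 26 DSXF and 23 DSXM peaks, were left out.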

Additional observations from a re-analysis of the deposited data

How the results depend on the processing

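Each of 7 values was recomputed under 7 alternatives: the number of DSXF-only peaks beside DSXM, their share of DSXF-only peaks, their median gap and width, and the shares with a shared DSXM neighbour, with DSXM on both sides and on X. Limits of 5000 and 20000 bp in place of 10000 bp changed by construction the share beside DSXM (50.2 and 82.1%), the median gap (1868 and 3595 bp) and the share with DSXM on both sides (23.6 and 51.5%). With peaks within 500 bp of DSXM counted as partnered, the share beside DSXM was 64.7% and the median gap 3176 bp. With peaks up to 500 bp apart merged in both lists they were 64.7% and 3176 bp. A partner by reciprocal overlap of 50% brings in peaks that do overlap DSXM, and gave 71.3% beside DSXM, a median gap of 2039 bp, a shared neighbour for 88.3% and a median width of 1210 bp. With the DSXF list cut to its 5347 widest peaks, to equal the DSXM list, the number was 840, the median gap 2586 bp, the share with a shared neighbour 82.6%, the median width 1362 bp and the share on X 15.8%, against 12.3% as reported; why the share on X was higher was not tested. With the wider 50% of each list the number was 482, the share beside DSXM 52.7%, the median gap 3048.5 bp, the share with a shared neighbour 90.9%, the share with DSXM on both sides 24.9% and the median width 1875 bp. That cut also removes narrower DSXM peaks, so DSXF peaks that overlap only those can enter the number. In both cuts by width the larger median width follows by construction. A DSXM neighbour counted as shared there only if it overlapped a DSXF peak that the cut kept. The share over all DSXM peaks was not recomputed, so the changes in this share cannot be read as traits of the neighbours. Width stood in for a stricter threshold because the lists hold no score, and it is no measure of occupancy. The other values lay within their counting intervals, or for the number within 1.5 times. With only the DSXF list cut the number was 840, so it depends on how narrow a DSXF peak is admitted. A DSXM peak below its list's threshold at these places cannot be told apart from none. No paired analysis was possible because the replicates of an isoform stand pooled in 1 list, and for the same reason no replicate could be left out.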
